A study of Arabidopsis thaliana with 8 samples.

Results

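The response of wild-type Arabidopsis seedlings to a short cold treatment was described gene by gene. It was the log2 signal of seedlings of ecotype Col-1 after 6 h at 4 °C minus that of the same ecotype before cold, which rested on 4 of the 8 arrays of the series, 2 biological replicates per group. All 22746 probe sets that were not controls were kept, and a probe set is a group of short probes that reads 1 transcript. Wild-type seedlings were grown at 22 °C for 10 days and were then moved to 4 °C, or were sampled before the move. The remaining 4 arrays held line L20, which overexpresses the wheat bZIP transcription factor gene TabZIP6, after and before the same treatment. They lent their spread between replicates to the test and are otherwise given only beside a few wild-type values. How many transformation events L20 stands for, the promoter of its transgene, the light regime and the hours of sampling are not given in the sources used here. No seedlings held at 22 °C for 6 h were analysed here, so cold, time of day and age in hours cannot be told apart. Whole seedlings were used, in which fewer cells of a type and less RNA per cell cannot be told apart.

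Plants of temperate climates gain tolerance to freezing after a spell of cold above freezing, which is called cold acclimation. In Arabidopsis the CBF transcription factors, induced by cold, bind the promoters of the cold-regulated (COR) genes and raise their transcripts. COR products include dehydrins, which are hydrophilic proteins of drying and freezing plants, and small proteins of the chloroplast. Acclimation is also known for changes in flavonoids, antioxidants, sugars and membrane lipids, and for slowed growth.

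Array medians lay between 4.95 and 5.05 on the log2 scale on the 4 wild-type arrays. Their upper quartiles were 6.52 and 6.46 after cold and 6.28 and 6.58 before cold. Across probe sets the 2 arrays of a group correlated at 0.959 after cold and at 0.968 before cold. The RNA-quality measure, 3′ minus 5′ log2 signal of a transcript, was 1.47 to 1.52 after cold and 1.09 to 1.67 before cold for GAPDH, and 0.65 to 0.67 after cold and 0.72 to 1.13 before cold for actin. For ubiquitin it was 0.20 and 0.51 after cold and 0.48 and 0.49 before cold. Its part in the results was not tested. The labelled tissue was checked with RCA, the activase of Rubisco in green cells, which stood at 13.40 and 13.14 after cold and at 12.73 and 12.99 before cold. PYK10, a beta-glucosidase of roots, stood at 9.38 and 8.51 after cold and at 8.76 and 9.04 before cold. EXPA7 and EXPA18, expansin genes of root hairs, stayed at or below 5.41 on every wild-type array. None of the lists of seed, flower or heat-stress genes had a probe set with 1 named gene, so those tissues and that stress were not checked.

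After 6 h of cold, with all arrays in the test, more probe sets were higher than lower. The limma test called 121 of 22746 probe sets (0.532%) at an adjusted p under 0.05, of which 92 rose (0.404%) and 29 fell (0.127%). The increases had a median of 2.41 and the decreases a median of -2.44 on the log2 scale, and the smallest called change was 2.42-fold. At least 4-fold changes were seen in 62 of the 92 increases and in 19 of the 29 decreases, and at least 16-fold changes in 8 and 3 of them. In each of the 121 the arrays after cold did not overlap those before cold, which was also true of 29.2% of all probe sets. A model that also held the replicate number as a block called 357 (1.57%), of which 230 rose (1.01%) and 127 fell (0.558%), and the 121 were all among them. Groups did not overlap in 353 of the 357, so a lack of overlap adds little to a call. A change of at least 2-fold in the same direction in both replicate numbers was reached upwards by 316 probe sets (1.39%) and downwards by 194 (0.853%), against 11 that moved at least 2-fold in opposite directions.

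**Figure D1:**
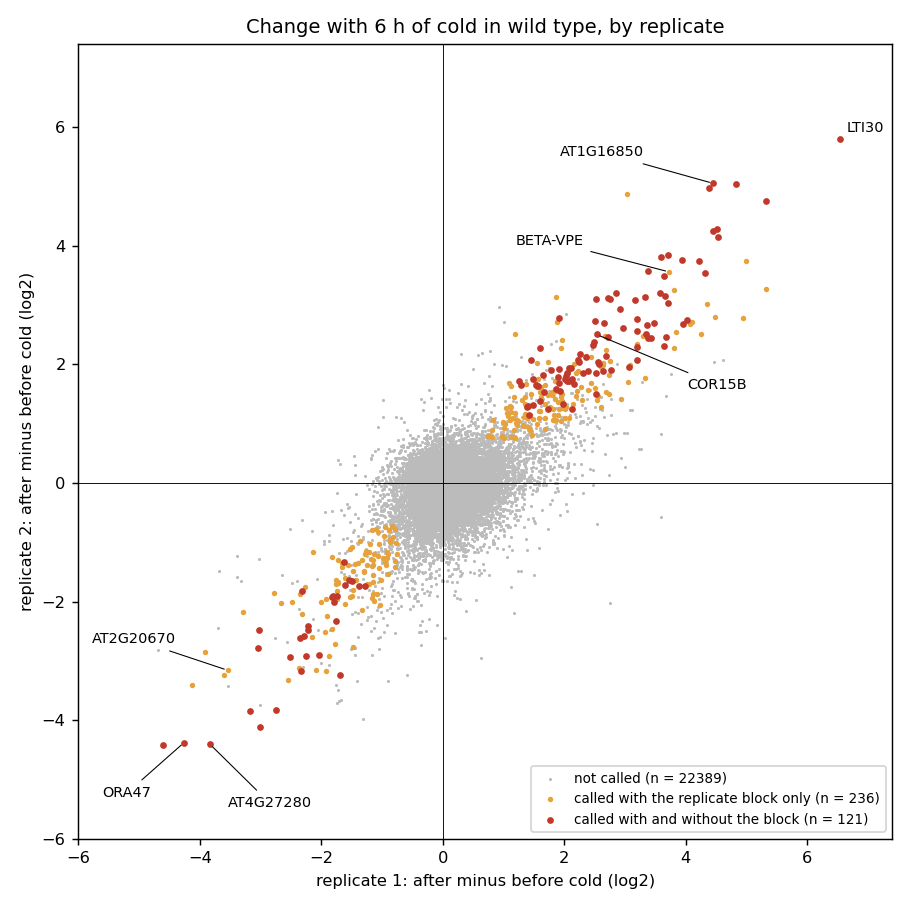
Log2 change with cold (after minus before) of each of the 22746 probe sets in wild type, replicate 1 on the x axis and replicate 2 on the y axis. Red points passed limma at an adjusted p under 0.05 with and without the replicate block (121), orange points passed with the block only (236) and grey points passed in neither. Red points lie in the upper right and lower left quadrants, from ORA47 and AT4G27280 at the low end to LTI30 at the high end.

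The scatter of replicate 1 against replicate 2 holds a dense centre and 2 tails. The standard deviation of the change over all probe sets was 0.529 in replicate 1 and 0.496 in replicate 2. Across probe sets, which share their arrays and are not independent replicates, the changes of replicates 1 and 2 correlated at 0.526. Of the 92 increases, 69 were larger in replicate 1, and of the 29 decreases, 24 were larger in replicate 2. After a further quantile normalization of the arrays these counts were 35 of 92 and 11 of 29.

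The COR genes gave the largest named increase. LTI30, which encodes a dehydrin, stood at 11.65 and 12.09 after cold and at 5.12 and 6.29 before cold. Both chilled arrays lay more than 5 log2 units above the higher of the unchilled ones, and the change was 6.16 ± 0.47 (SE), or 71.7-fold (limma adjusted p = 0.00924). COR47, another dehydrin gene, stood at 12.38 and 12.36 after cold and at 9.75 and 10.48 before cold, a change of 2.25 ± 0.26 (adjusted p = 0.0234). The chilled arrays of COR47 were nearly equal, and most of its spread lay between the unchilled arrays. COR15A and COR15B encode related small proteins that protect chloroplast membranes during freezing. COR15A read 10.39 and 10.34 after cold and 7.82 and 8.31 before cold (change 2.30 ± 0.26, adjusted p = 0.0225). COR15B read 11.19 and 10.90 after cold and 8.66 and 8.40 before cold (change 2.52 ± 0.28, adjusted p = 0.0222). The groups of both genes were far apart, and whether their probes read each other's transcripts was not tested.

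Of 31 CBF-regulon and COR loci in the list, 5 had a named probe set with a matching symbol. All 5 were higher after cold, and 4 of the 5 passed. Of all 13355 named genes 0.389% were called, 0.3% upwards and 0.0899% downwards, and in the blocked fit 1.25%, 0.771% upwards and 0.479% downwards. The list was written with earlier results of these arrays known, and its median change was 2.30, against 0.02 over all named genes. COR27, a cold-induced regulator of the circadian clock, was the measured member that missed the test. It stood at 8.70 and 9.02 after cold and at 6.78 and 7.54 before cold (1.70 ± 0.33, limma adjusted p = 0.127, or 0.0698 with the block). The clock gene GI, known for its part in flowering time and cold tolerance, stood at 8.97 and 8.79 after cold and at 7.42 and 8.11 before cold. Its change of 1.12 ± 0.30 missed as well (limma adjusted p = 0.287, or 0.157 with the block). Of the 38 clock loci in the list, 2 more had a named probe set and were left out because RefSeq gives them no symbol to match. The remaining clock loci were on no probe set with 1 named gene and were not analysed here. AT4G33980, 1 of those left out of the clock list and of the COR list for that reason, stood at 8.91 and 8.38 after cold and at 6.65 and 7.69 before cold. Its change of 1.47 ± 0.35 missed the test (limma adjusted p = 0.235, or 0.131 with the block).

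Other genes known for stress protection also rose. TIL encodes a temperature-induced lipocalin of the plasma membrane, a small lipid-binding protein known for its part in freezing and heat tolerance. It stood at 10.39 and 10.50 after cold and at 7.87 and 8.65 before cold, a change of 2.19 ± 0.26 (limma adjusted p = 0.0277). SERPIN1, an inhibitor of proteases, stood at 8.62 and 8.22 after cold and at 6.39 and 6.15 before cold (2.14 ± 0.20, adjusted p = 0.0149). RD2, named for its response to desiccation, stood at 9.56 and 9.96 after cold and at 8.07 and 8.22 before cold (1.62 ± 0.23, adjusted p = 0.0444). In each of these 3 genes the lower chilled array lay more than 1 log2 unit above the higher unchilled array.

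UGT78D2, which encodes an enzyme that adds a sugar to flavonols and anthocyanidins, rose. It stood at 7.89 and 7.43 after cold and at 4.69 and 5.14 before cold, a 6.70-fold change (limma adjusted p = 0.0190). The list of flavonoid and anthocyanin genes, of 19 loci, did not hold UGT78D2. Of its 2 measured genes 0 passed in either fit, with 0 at an unadjusted p under 0.05. A further 2 loci of the list had a named probe set and were left out of that count because no symbol matched. DFR, an enzyme of anthocyanin synthesis, stood at 5.94 and 5.79 after cold and at 5.35 and 5.83 before cold, so its groups overlapped (0.27 ± 0.28). UF3GT, another glycosyltransferase of that pathway, differed by 0.09 ± 0.22. Over the family of UDP-glycosyltransferases, 51 genes were measured and 32 were higher after cold. Without the block 1 passed, and the median change was 0.06. UGT72B3 (1.59 ± 0.15, SE with the block) passed with the block as well, at a limma adjusted p = 0.00741 against 0.0577 without it.

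A further set of genes with a RefSeq symbol passed upwards with the replicate block and missed without it. BETA-VPE, a protease that matures proteins in the vacuole, read 8.40 and 9.58 after cold and 4.68 and 6.03 before cold. Replicate 2 was higher than replicate 1 by more than 1 log2 unit in both states, while the change was 3.72 in replicate 1 and 3.56 in replicate 2 (limma adjusted p = 0.00265 with the block and 0.181 without it). CCT2, an enzyme of phosphatidylcholine synthesis, a main membrane lipid, stood at 8.40 and 6.89 after cold and at 6.20 and 5.42 before cold. Its change was 1.83 ± 0.30 (SE with the block, limma adjusted p = 0.0466 with the block and 0.590 without it). Its groups did not overlap, yet its chilled arrays differed from each other by more than 1 log2 unit.

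Among these were genes of redox metabolism. GR1, a glutathione reductase, stood at 9.66 and 9.94 after cold and at 7.52 and 8.61 before cold (1.74 ± 0.27, SE with the block, limma adjusted p = 0.0375 with it and 0.141 without it). VTC4, an enzyme of ascorbate synthesis, stood at 9.81 and 9.33 after cold and at 8.12 and 8.004 before cold (1.51 ± 0.15, adjusted p = 0.0103 with the block and 0.0570 without it). NDB2, an alternative NAD(P)H dehydrogenase of the mitochondrion, stood at 6.78 and 6.58 after cold and at 4.62 and 4.58 before cold. Its change was 2.08 ± 0.33 (SE with the block, limma adjusted p = 0.0422 with the block and 0.152 without it). The 4 other measured genes of that family, NDB1, NDB3, NDB4 and NDC1, differed by 0.05 to 0.63 and passed in neither fit.

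The remaining symbol genes that passed upwards with the block alone covered several functions. The sugar transporter gene SWEET2 differed by 1.01, the endoglucanase gene GH9C2 by 1.15 and the plant defensin gene PDF2.1 by 1.58 on the log2 scale. BIM1, a bHLH transcription factor gene of brassinosteroid signalling, differed by 0.87 and the beta-glucosidase gene BGLU25 by 1.40. NPF3.1 (AT1G68570), a transporter gene of the nitrate and peptide family without a RefSeq symbol here, passed with the block alone too and differed by 2.28. DI21, named for its induction by drought, differed by 1.28, and SAT32, named for salt tolerance, by 1.71. In the blocked fit limma's adjusted p ran from 0.00658 for SAT32 to 0.0375 for PDF2.1. In none of these 8 genes did the groups overlap, as in 353 of the 357 probe sets called with the block.

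**Figure D2:**
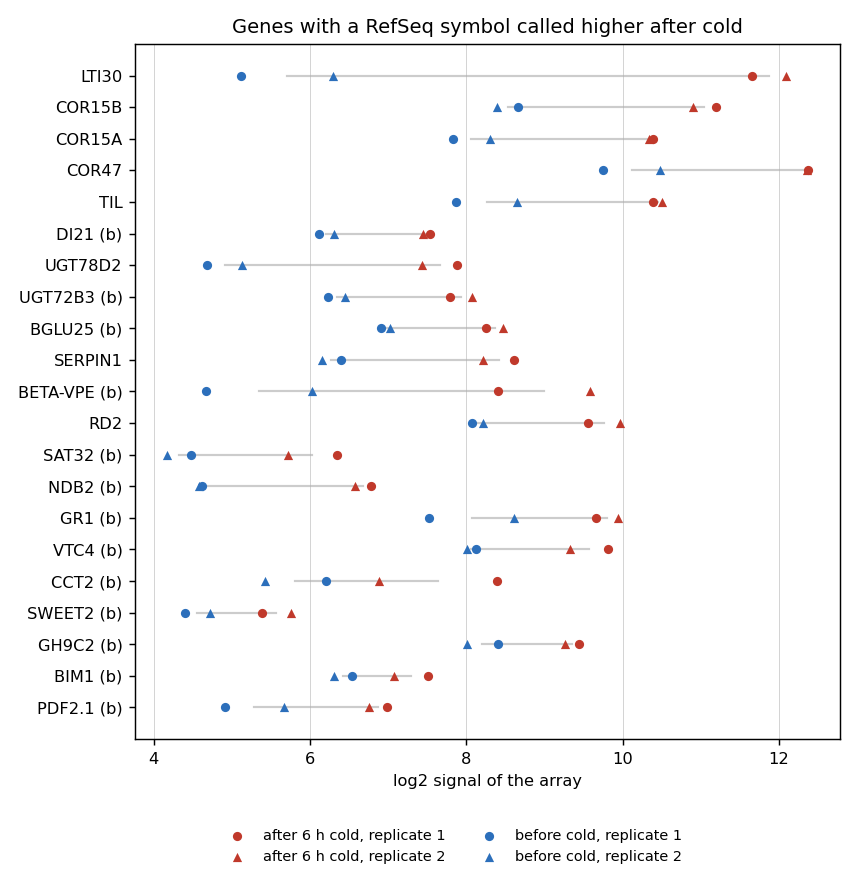
Log2 signal (x axis) of the named genes with a RefSeq symbol that rose after cold, each on the 4 wild-type arrays: red, after cold, blue, before cold, circles, replicate 1, triangles, replicate 2, and a grey line joining the group means. Genes marked (b) passed with the replicate block only. Red and blue symbols do not overlap in any gene, and LTI30 spans the widest gap, with means of 11.87 after cold and 5.71 before cold.

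Most named increases were known here by locus alone, since the RefSeq table gives no function for them. Among the 15 largest named increases, LTI30 included, AT1G16850 read 9.13 and 9.88 after cold and 4.68 and 4.83 before cold (4.75 ± 0.35, limma adjusted p = 0.00872). AT1G48100 and AT1G51090 followed at 4.35 ± 0.46 and 4.34 ± 0.42. AT3G55580 had the lowest adjusted p of the named genes, 0.00615, and read 8.34 and 8.59 after cold and 4.64 and 4.75 before cold. These 4 genes lay close to the array median before cold and above the upper quartile after cold. AT4G12000, AT1G73480, AT1G10410, AT1G80130, AT5G62360, AT1G68500 and AT1G64890 rose by 3.70, 3.401, 3.23, 3.12, 3.07, 3.03 and 3.01 on the log2 scale. AT3G17130, AT5G19875 and AT3G17800 completed the 15 at 2.92, 2.92 and 2.88. AT5G62360 was the brightest of them after cold, at 13.05 and 12.57, and stood at 9.38 and 10.10 before cold.

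The other 19 loci without a symbol among the 41 named probe sets that rose without the block did so by 1.35 (AT5G64230) to 2.79 (AT4G32190). With the block, the naming rule added AT4G36010, AT5G47060, AT1G32860 and AT3G04010 beside BETA-VPE. AT4G36010 stood at 11.68 and 10.77 after cold and at 6.69 and 7.03 before cold (4.37 ± 0.44, SE with the block, limma adjusted p = 0.00995 with it and 0.0507 without it). AT3G04010 stood at 9.80 and 8.35 after cold and at 5.33 and 5.55 before cold, and it missed without the block at an adjusted p = 0.271. In AT4G36010, AT5G47060, AT1G32860 and AT3G04010 the increase was larger in replicate 1 than in replicate 2.

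Fewer named genes fell, and ORA47 fell furthest. ORA47 encodes an AP2/ERF transcription factor of the jasmonate response. It stood at 4.64 and 3.91 after cold and at 8.91 and 8.29 before cold, a change of -4.32 ± 0.63 (limma adjusted p = 0.0490, or 0.00307 with the block). Its chilled arrays lay below the median of their arrays, and its unchilled arrays above the upper quartile of theirs. No other jasmonate gene of the list had a named probe set. The list of rapid stress and touch genes, which holds ORA47 too, had 7 measured members. Of these, 5 were lower after cold and ORA47 was the 1 that passed. AT4G27280, described below, stands in that list too and was left out of the count for lack of a symbol to match. STZ (also called ZAT10), a zinc-finger repressor of stress responses, stood at 8.97 and 8.11 after cold and at 9.25 and 9.74 before cold (-0.95 ± 0.62) and missed in both fits. CML37, CML38, WRKY6, WRKY53 and AT1G76640 differed by -0.56 to 0.07.

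PUB25 and PUB26 encode U-box ubiquitin ligases that are known to act on the transcription factor MYB15 in cold signalling. PUB25 stood at 4.40 and 4.45 after cold and at 6.20 and 6.35 before cold, a change of -1.85 ± 0.19 (limma adjusted p = 0.0190). PUB26 stood at 5.46 and 5.56 after cold and at 6.38 and 6.83 before cold, and its change of -1.09 ± 0.17 (SE with the block) passed with the block at 0.0406 and missed without it at 0.153. The groups of neither gene overlapped, as in 353 of the 357 probe sets called with the block. Of the 7 other measured U-box genes none passed in either fit, with changes between -0.85 for PUB23 and 1.66 for PUB19.

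Among genes of carbon and energy, DPE1, the plastid enzyme that rearranges maltotriose during starch breakdown, stood at 6.12 and 6.47 after cold and at 7.69 and 7.85 before cold. Its change of -1.47 ± 0.14 (SE with the block) passed with the block at a limma adjusted p = 0.00736 and missed without it at 0.0589. PWD, which phosphorylates starch, differed by -0.65 ± 0.25 and missed, and SBE2.2, a starch branching enzyme, and APL3, a subunit of the enzyme that makes ADP-glucose, differed by 0.24 and 0.32. AKINBETA1, a subunit of the energy-sensing kinase SnRK1, stood at 4.56 and 4.95 after cold and at 6.06 and 6.86 before cold. Its change was -1.70 ± 0.18 (SE with the block, limma adjusted p = 0.0106 with the block and 0.134 without it). ALDH6B2, an enzyme of valine breakdown, fell to 7.25 on both arrays after cold, against 8.03 and 8.56 before cold (adjusted p = 0.0492 with the block and 0.155 without it). In these genes of carbon and energy that passed, every chilled array was below every unchilled array. Groups were likewise apart in 353 of the 357 probe sets called with the block, and in 29.2% of all probe sets.

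BHLH101 and PYE encode bHLH transcription factors of the iron-deficiency response. BHLH101 stood at 4.65 and 4.34 after cold and at 6.47 and 5.59 before cold (-1.54 ± 0.19, SE with the block, limma adjusted p = 0.0188 with it and 0.146 without it). PYE stood at 4.17 and 4.17 after cold and at 5.21 and 4.85 before cold, and it missed with and without the block (adjusted p = 0.0791 and 0.424). Both genes lay below the array median after cold, as did 1 of the 2 arrays of AT1G47400. That locus of the iron list has no symbol in RefSeq to match and was left out of its count. It stood at 4.79 and 5.32 after cold and at 7.11 and 7.15 before cold (-2.08 ± 0.21, adjusted p = 0.0190). The remaining loci of the iron list were on no probe set with 1 named gene.

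Fes1 proteins release nucleotide from HSP70 chaperones, and 3 of their genes were measured. Fes1B stood at 6.25 and 6.98 after cold and at 7.98 and 8.28 before cold (-1.52 ± 0.25, SE with the block), and Fes1C stood at 5.82 and 6.28 after cold and at 6.86 and 7.31 before cold (-1.04 ± 0.13). Both passed with the block (limma adjusted p = 0.0486 and 0.0194) and missed without it (0.200 and 0.270). Fes1A stood at 5.53 and 6.00 after cold and at 5.41 and 5.75 before cold, with overlapping groups. ARL, an ARGOS-like gene that promotes cell expansion, stood at 6.83 and 7.24 after cold and at 7.98 and 9.11 before cold (-1.51 ± 0.23, adjusted p = 0.0349 with the block and 0.274 without it). DEWAX (AT5G61590), a transcription factor gene that represses cuticular wax synthesis, stood at 6.09 and 7.15 after cold and at 8.35 and 8.91 before cold. Its change was -2.01 ± 0.32 (SE with the block, limma adjusted p = 0.0406 with the block and 0.367 without it).

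**Figure D3:**
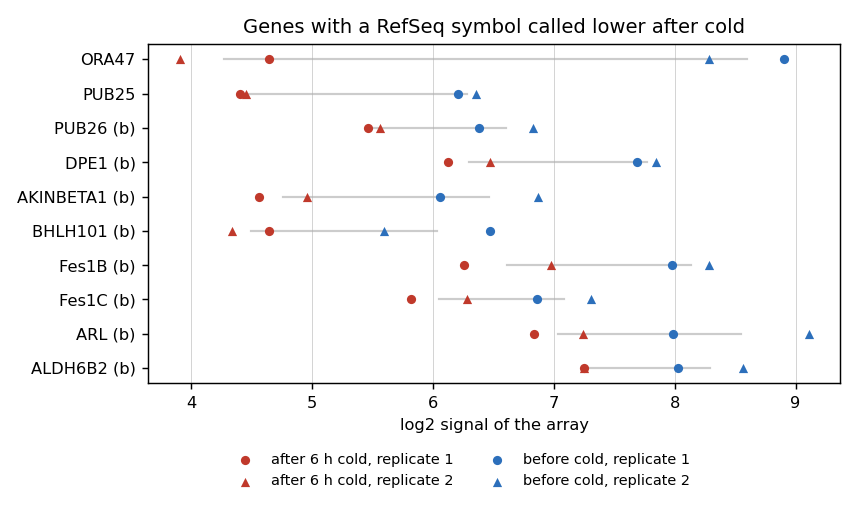
Log2 signal (x axis) of 10 genes with a RefSeq symbol that fell after cold, on the 4 wild-type arrays: red, after cold, blue, before cold, circles, replicate 1, triangles, replicate 2, and a grey line joining the group means. Genes marked (b) passed with the replicate block only. ORA47 has the widest gap, with means of 4.27 after cold and 8.60 before cold, and no red symbol lies above a blue one of the same gene.

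The other named decreases were loci without a symbol. AT4G27280 stood at 6.53 and 6.40 after cold and at 10.36 and 10.80 before cold, 17.4-fold lower after cold (limma adjusted p = 0.0117). AT1G72920 stood at 3.54 and 3.93 after cold and at 6.58 and 6.70 before cold (-2.91 ± 0.22, adjusted p = 0.00908). AT4G27280 lay above the upper quartile before cold, and AT1G72920 lay below the array median after cold. AT3G26510, AT2G25200, AT1G47400, AT5G56100, AT3G10120, AT1G60010, AT4G19160 and AT5G07580 fell by 2.75, 2.44, 2.08, 2.04, 1.87, 1.57, 1.56 and 1.51 on the log2 scale. With the block, AT1G23390 (-3.77), AT5G03230 (-3.42), AT2G20670 (-3.35) and AT1G32920 (-2.75) were the largest decreases it added. AT2G03750, AT3G23880, AT2G24550, AT5G11070, AT1G25400 and AT2G38820 followed among the decreases that passed with the block alone, and fell by 2.40, 2.37, 2.27, 2.23, 2.12 and 2.11 on the log2 scale. AT2G20670 shows what the block removes: it read 5.36 and 7.62 after cold and 8.90 and 10.78 before cold. Its replicates differed by more than 1 log2 unit in both states, its change was -3.54 in replicate 1 and -3.16 in replicate 2, and its limma adjusted p was 0.00658 with the block and 0.558 without it.

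In several groups known for cold or growth no measured member passed the test, and in every list of loci most loci were not measured. The lists of membrane lipid, light and shade signalling, and RNA chaperone genes, of 13, 13 and 11 loci, had no measured gene. Measured were 1 of 29 loci of the abscisic acid list and 10 of 41 of the auxin and gibberellin list. LEA4-5, a late-embryogenesis protein gene of the abscisic acid response and alone measured in its list, stood at 6.77 and 8.54 after cold and at 5.84 and 5.57 before cold (1.95 ± 0.87, limma adjusted p = 0.818, or 0.439 with the block). Its replicates moved by 0.93 and 2.97, so most of its mean change came from replicate 2. Of the auxin and gibberellin growth genes, 0 of 10 passed in either fit, and 1 of the 10 had an unadjusted p under 0.05. After cold 8 were lower, as were 6088 of all 13355 named genes, and the median change was -0.20. The expansin gene EXPA8 stood at 7.36 and 6.29 after cold and at 7.72 and 8.35 before cold, and its change of -1.21 was the lowest of that list. Of 19 expansin genes, which act in wall loosening, none passed, and 5 had an unadjusted p under 0.05. EXLA1 came nearest at 2.00 ± 0.39 (adjusted p = 0.136, or 0.0656 with the block). BZIP61 had the lowest change of the 21 measured bZIP genes, at 5.43 and 4.19 after cold and 7.19 and 7.59 before cold, and it missed in both fits (adjusted p = 0.139, or 0.0797 with the block).

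In the larger families described next, few or no members passed. The 69 plastid-encoded genes had 0 calls in either fit and 0 members at an unadjusted p under 0.05. Of them 51 were higher after cold, against 7267 of all 13355 named genes. Their median was 0.13, against 0.02 over all named genes, and it was 0.24 in replicate 1 and 0.03 in replicate 2. Of 28 cytochrome P450 genes, 14 glutathione S-transferase genes and 15 IQD genes none passed in either fit, with 2, 1 and 0 members at an unadjusted p under 0.05. Of the 16 SWEET genes, 4 had an unadjusted p under 0.05, against 769 of all 13355 named genes. In that family 13 were higher after cold and SWEET2 was the 1 that passed, with the block alone. SAG29, of the same family, stood at 8.32 and 7.39 after cold and at 6.34 and 6.30 before cold and missed (limma adjusted p = 0.474, or 0.145 with the block).

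**Figure D4:**
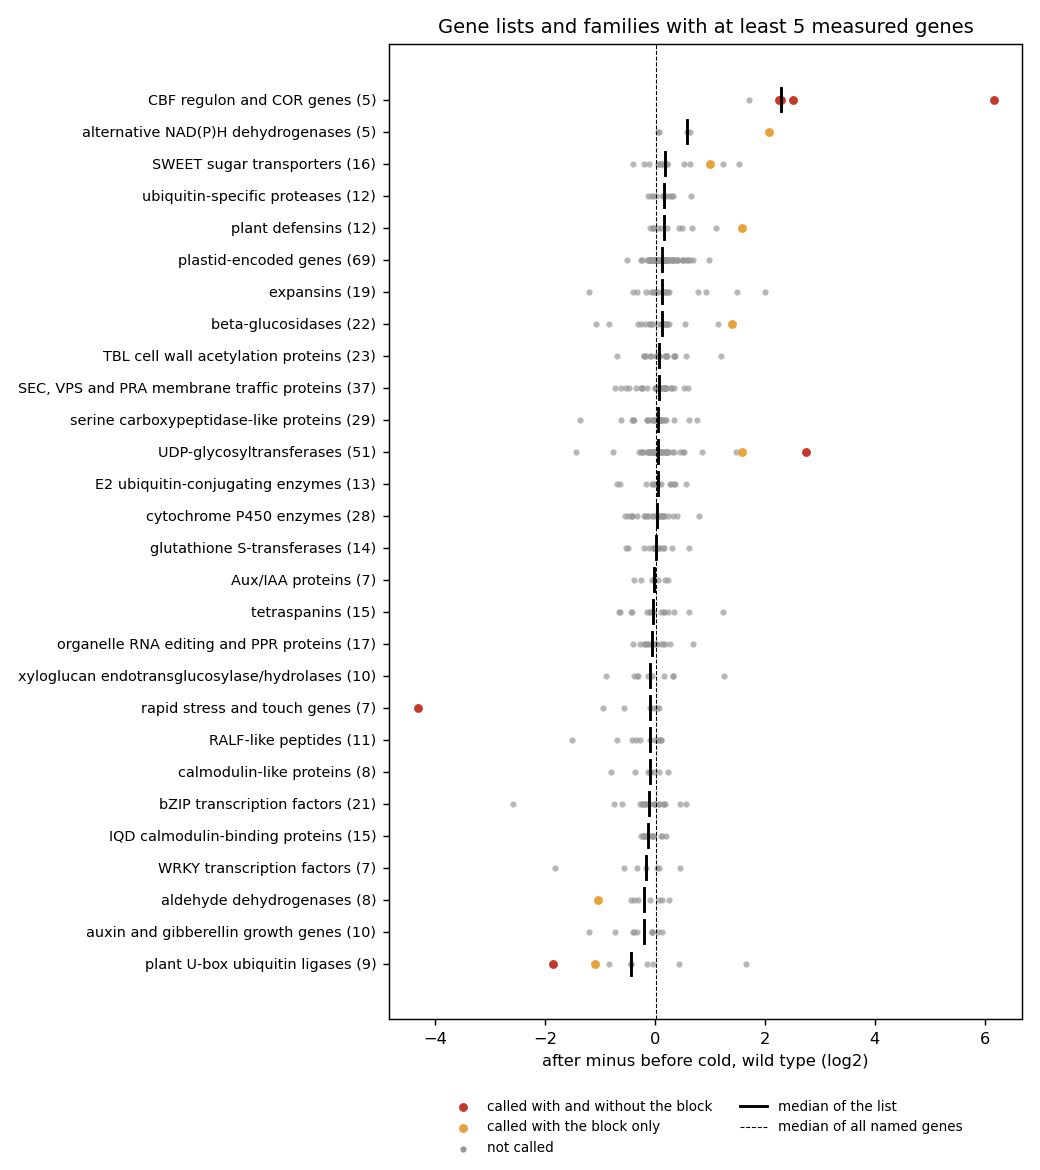
Log2 change with cold in wild type (x axis, after minus before) of each measured gene in the lists and families with at least 5 measured genes, whose number stands in parentheses. Red points passed limma with and without the replicate block, orange points with the block only, grey points in neither; the short bar is the median of the list and the dashed line the median of all named genes (0.02). The CBF-regulon and COR genes stand at a median of 2.30, and all other medians lie between -0.44 and 0.59.

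Many of the strongest changes could not be named. Of the 92 increases, 51 were on a probe set with no gene or several genes in the annotation, and so were 17 of the 29 decreases. Over all 22746 probe sets, 8730 had no gene and 503 had several. Probe set 266719_at stood at 10.32 and 9.90 after cold and at 5.001 and 5.14 before cold, a change of 5.04 ± 0.25 (limma adjusted p = 0.00549). Probe set 264953_at changed by 4.93 ± 0.52. Downwards, 260037_at stood at 5.37 and 6.45 after cold and at 9.97 and 10.87 before cold (-4.51 ± 0.53, adjusted p = 0.0262), below ORA47 in its change. These named and unnamed probe sets came from the same fit, so the ranking of named genes is not a ranking of the whole response.

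In line L20, set beside wild type with its own chilled and unchilled arrays, 118 of the 121 probe sets called in wild type had a change of the same sign, as did 62.3% of all probe sets. COR47 (-0.23 ± 0.26 in L20) was among the 3 of opposite sign. The difference between the responses of wild type and L20 passed for 0 probe sets by limma, with the block and without it, where 1215 and 497 had an unadjusted p under 0.05. Genes named above stood close to each other in some cases: UGT78D2 changed by 2.75 in wild type and 2.48 ± 0.29 in L20, TIL by 2.19 and 1.89 ± 0.26, and DPE1 by -1.47 and -1.36 ± 0.23. In others the values lay further apart: NDB2 changed by 2.08 in wild type and -0.15 ± 0.43 in L20, RD2 by 1.62 and 0.30 ± 0.23, and AT1G72920 by -2.91 and -0.06 ± 0.22. So did those of several leading genes: LTI30 changed by 6.16 in wild type and 1.64 ± 0.47 in L20, AT1G16850 by 4.75 and 0.30 ± 0.35, and ORA47 by -4.32 and -0.38 ± 0.63. COR15A changed by 2.30 in wild type and 0.52 ± 0.26 in L20, and COR15B by 2.52 and 0.50 ± 0.28. Before cold, L20 stood at 10.84 and 9.79 for LTI30, 9.20 and 9.44 for AT1G16850, and 5.82 and 4.07 for ORA47. It stood at 9.70 and 10.14 for COR15A and at 10.82 and 10.42 for COR15B. After cold, its LTI30 read 11.80 and 12.09. In LTI30, AT1G16850, ORA47, COR15A and COR15B the lines differed before cold and stood close to each other after cold.

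Leaving out 1 wild-type array leaves 1 array in its group, which costs power. A fall in calls therefore does not show that single arrays carried the result. The counts fell in each such fit. They were 6 without replicate 1 after cold, 0 without replicate 2 after cold (1281 at an unadjusted p under 0.05), 15 without replicate 1 before cold and 15 without replicate 2 before cold, where each such fit leaves 3 residual degrees of freedom. Without replicate 1 before cold, 7 probe sets were called higher and 8 lower, so the excess of increases was not seen there. The 3 named genes among the 6 were AT1G16850, AT3G55580 and AT5G19875.

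**Figure D5:**
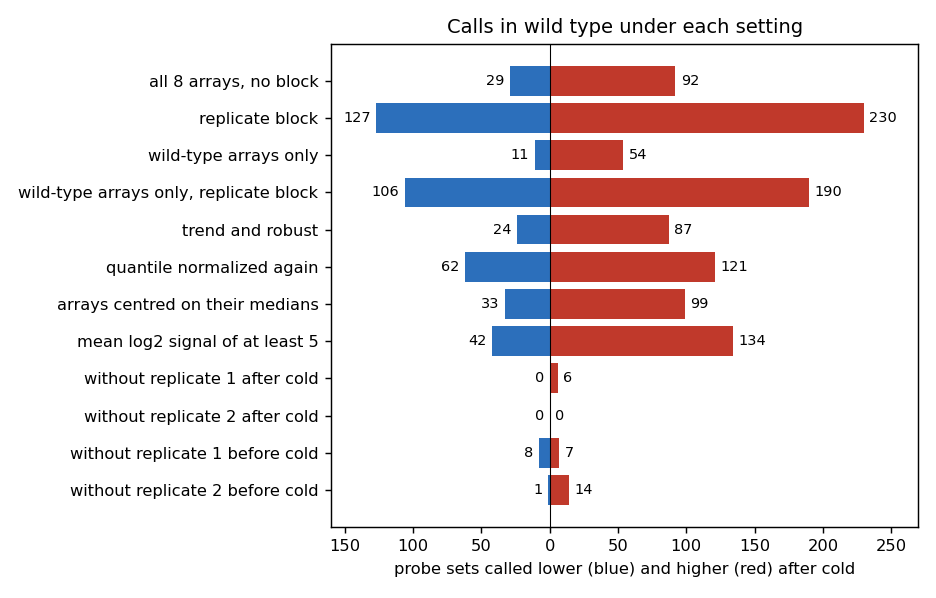
Number of probe sets called lower (blue, left of 0) and higher (red, right of 0) after cold in wild type under each setting of the limma test, on 1 axis that counts outwards from 0. With all 8 arrays and no block the counts were 29 and 92, with the replicate block 127 and 230, and without replicate 2 after cold 0 and 0.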

How the data were processed

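Each array was hybridised with the RNA of 1 sample of whole seedlings. The sample titles gave the group and the replicate number, and each of the 8 value columns matched 1 sample. The authors deposited 1 table of log2 signals. The submitters' processing notes name RMA, a method that subtracts background, gives all arrays a common distribution and combines the probes of a set; no version is given in the sources used here. Such a normalization removes changes shared by most genes. The deposited arrays did not share 1 distribution, as the upper quartiles above show, and the cause was not tested. Scanner files were not used here.

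The 64 control probe sets were left out. Names came from the platform annotation, updated by Entrez identifier through RefSeq names of assembly TAIR10.1: 13513 probe sets had 1 gene, 503 several and 8730 none, and 13436 matched a RefSeq gene. A gene was read by its brightest probe set, which gave 13355 genes. Gene lists (19 with 377 loci, of which a locus was kept only where its symbol matched, and 26 families by symbol) and the members were chosen with earlier results of these data known, and the families were rewritten after the annotation was seen.

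The test was limma 3.58.1 in R 4.3.3 (1 mean per group over 8 arrays, eBayes, two-sided, Benjamini-Hochberg over 22746 probe sets, called under 0.05), with 4 residual degrees of freedom. Adjusted p-values and SE in the text are limma's, without the block unless stated. For genes that passed with the block alone, the SE of the wild-type change is that of the blocked fit. With 2 arrays against 2, the smallest two-sided p of an exact permutation test is 0.333. The labels do not say how replicates were grown apart, so p-values measure only the spread between these samples. Groups share replicate numbers 1 and 2. The difference of replicate 1 minus replicate 2 correlated at 0.341 to 0.837 between every pair of groups, and at 0.488 to 0.894 over 45 controls for RNA added during processing, so the number was treated as a shared batch; this pairing comes from the data and not from the labels. Blocked values stand beside results whose call they change. Named genes were the 15 largest increases and decreases among calls with 1 gene and no overlap of groups, the same with the block, list members that passed and the 3 smallest p-values of a list (some left out for space), and a fixed set of 13 genes, of which COR28 was not found by its symbol. Genes passing with the block alone that are named for their symbol were chosen after their values were seen. NPF3.1 and DEWAX passed with the block alone and are named although they have no RefSeq symbol here.

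Simulated arrays held 200 changed probe sets among 22746 in this comparison. On them the test without the block recovered 2.99% of changes of 1 log2 unit, 59.7% of 2 and 97% of 4, with 0 false calls. With the block it recovered 34.3%, 89.6% and 98.5%, with 3 false calls. These arrays were given a replicate effect shared by all groups and the residual spread of the blocked fit. That setting favours the block, so the simulation cannot show whether the block suits the real arrays. Alternatives were other sets of arrays, variance priors, normalizations and filters, and leaving out each wild-type array.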

Additional observations from a re-analysis of the deposited data

How the results depend on the processing

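With the replicate block 357 probe sets changed (230 higher, 127 lower), against 121 without it (92 and 29), and all 121 were among the 357. The 4 wild-type arrays alone gave 65 (54 and 11), of which 51 were among the 121, and the wild-type arrays with the block gave 296 (190 and 106), of which 116 were. A further quantile normalization gave 183 (121 and 62), with 111 of the 121. Trend and robust settings (111), median centring (132) and a minimum mean signal of 5 (176 of 11518 probe sets tested) stayed within 1.5 times. Leaving out 1 wild-type array gave 0 to 15 changed probe sets, 0 to 14 increases and 0 to 8 decreases. Of 175 changes of single probe sets that were refitted, which leave out some genes named only as list members, 0 turned their sign under the alternatives that could be run for them. Increases did not outnumber decreases without replicate 1 before cold (7 and 8). Of the 53 named probe sets called without the block, 23 passed in 7 of 11 alternatives and 4 passed in 8 or more. The causes were not tested. Over the alternatives the median change of all probe sets was at most 0.08. Promoter motif shares were not run, since promoter sequences were not analysed here. Signal over background was not analysed. The mean before cold was under 5 in 19 of the 92 increases (20.7%), against 50.1% of all probe sets. The mean after cold was under 5 in 11 of the 29 decreases (37.9%), against 49.5% of all probe sets.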

Other observations

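Of the 167 named genes called with the block, 165 had a place in RefSeq assembly TAIR10.1, and 4 pairs of them were direct neighbours. Members of 3 pairs moved the same way: COR15B and COR15A (2.52 and 2.30 on the log2 scale), AT1G76580 and AT1G76590 (2.30 and 2.28), and AT3G52060 and AT3G52070 (-1.70 and -1.32). AT3G52060 is listed there as GnTL. In the other pair, AT1G27200 differed by 1.97 and AT1G27210 by -1.21. Shared reading of a transcript by neighbouring probe sets was not tested.

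For 2 genes, 2 probe sets were called with the block. Those of AT1G10090 changed by 2.31 and 2.40, of which the second passed without the block as well (limma adjusted p = 0.0296, against 0.228). Those of AT2G30600 changed by -1.54 and -1.17, with limma adjusted p-values of 0.0116 and 0.0466 with the block.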
